A study of Rattus norvegicus with 12 samples.

Results

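The smooth muscle contractile genes are 10 named genes of smooth muscle, part of which activated fibroblasts also express. They are Acta2, Tagln, Cnn1, Cnn2, Myl9, Tpm2, Actg2, Myh11, Lmod1 and Des. They were chosen by symbol, and 9 of the 10 had a row among the 12271 genes of the table. Cnn2, a calponin of non-muscle cells as well as muscle, had no row in the table used here, so no level of it is given. RNA was sequenced from cardiac fibroblasts isolated from the ventricles of postnatal day 2 Sprague Dawley rats and cultured in DMEM with 15% FBS (7.5% in the study's methods). The 4 groups of 3 libraries were given negative siRNA (MISSION siRNA Universal Negative Control #1 + #2) or siRNA targeting Yap, Wwtr1 or Yap+Wwtr1 together. Each target was hit with a pair of siRNAs at 25 nM, 16 hours after plating per the labels, and cells were collected 48 hours later. The siRNA label of the Yap+Wwtr1 group lists only Wwtr1 siRNAs, and the design text calls the cells myocytes where every sample label calls them fibroblasts. Per the study's methods, the replicates of a group came from separate litters.

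When a fibroblast turns into a myofibroblast, it takes on part of the contractile apparatus of smooth muscle. Smooth muscle actin forms the filaments, myosin pulls on them, tropomyosin, calponin, transgelin and leiomodin steer their assembly and access, and desmin links the contractile units through intermediate filaments. Many of these genes are classical targets of serum response factor (SRF), which binds a DNA element called the CArG box and is switched on by myocardin and the actin-sensing cofactors Mrtfa and Mrtfb. Yap and Wwtr1 (also called Taz) are related coactivators without DNA-binding domains of their own, which act mainly through TEAD factors, whose element reads CATTCC. The comparisons asked what happened to these transcripts when Yap, Wwtr1 or both were depleted.

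The 250 bases before the transcription start are shown for 3 members, because Acta2 was lower, its close relative Actg2 did not pass the test, and Des was higher in the double knockdown. The sequences are those of RefSeq on build GRCr8, all written 5′ to 3′ on the strand of the gene. Capitals mark CArG-like elements and the TEAD element, and where there are no capitals neither was found. They lie at chr1:241172504-241172753 (minus strand) for Acta2, chr4:117594040-117594289 (minus strand) for Actg2 and chr9:84299376-84299625 (plus strand) for Des.
Acta2: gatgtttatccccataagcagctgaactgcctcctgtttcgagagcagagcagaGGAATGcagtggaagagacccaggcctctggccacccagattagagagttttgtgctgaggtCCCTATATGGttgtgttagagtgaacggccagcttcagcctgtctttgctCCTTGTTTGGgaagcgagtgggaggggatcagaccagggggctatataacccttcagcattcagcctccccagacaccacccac
Actg2: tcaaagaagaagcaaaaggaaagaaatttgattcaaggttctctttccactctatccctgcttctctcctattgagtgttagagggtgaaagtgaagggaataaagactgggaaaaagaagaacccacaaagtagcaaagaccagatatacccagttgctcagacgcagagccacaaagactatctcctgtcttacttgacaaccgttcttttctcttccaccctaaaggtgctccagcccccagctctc
Des: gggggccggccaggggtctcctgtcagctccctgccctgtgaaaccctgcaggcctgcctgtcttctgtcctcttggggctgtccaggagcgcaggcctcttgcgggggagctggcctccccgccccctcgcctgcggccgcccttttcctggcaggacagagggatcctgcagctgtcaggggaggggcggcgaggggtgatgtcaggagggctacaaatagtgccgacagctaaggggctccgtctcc
A CArG-like element here is a CArG box with 1 of its inner A or T letters replaced by G or C, searched on both strands. The Acta2 window held 2 of them, CCCTATATGG from 134 to 125 and CCTTGTTTGG from 84 to 75 bases before the start. It also held CATTCC on the opposite strand, printed above as GGAATG, from 196 to 191 bases before the start. None of these elements overlapped another. Of the 33469 promoter windows of the same length, 6.84% held a CArG-like element, 1.5% an exact CArG box and 12.1% CATTCC on either strand. RefSeq windows were found for 6 of the 10 members. Besides Acta2, the only match was an exact CArG box in the window of Cnn2. The window of Tpm2, whose transcript also fell in the double knockdown, held none of these elements, and neither did that of Cnn1. Such matches are letters in a window and not measured binding. Windows of Tagln, Myl9, Myh11 and Lmod1 were not analysed here.

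Values are normalized counts, that is, whole counts divided by 1 size factor per library. They are not corrected for gene length, so levels are compared between libraries and not between genes. Recovered totals ran from 33.9 to 41.1 M counts per library, more than the reads per sample in the study's methods. The targeted genes followed their labels. Yap1 fell by 82.3% with Yap siRNA and by 70.1% in the double knockdown, and Wwtr1 fell by 76.3% with Wwtr1 siRNA and by 63.9% in the double knockdown. Double knockdown replicate 3 stood apart from replicates 1 and 2. Its Yap1 level was 1474 against 713 and 739 normalized counts, and its Wwtr1 level was 1056 against 818 and 731. Its summed level of 9 macrophage markers was 44400 against 6531 and 13076 normalized counts (20907 to 29916 with negative siRNA). Tests of the contractile genes in the double knockdown are therefore also given without it, as are those of other named genes whose call was lost without it. None of the 12 fibroblast markers was at 0 in any library. In the double knockdown 4 of them were higher (Dcn, Pdgfra, Lum and Postn) and 2 lower (Col1a2 and Tcf21) than with negative siRNA, and the same 6 passed without replicate 3, where 32.8% and 34.2% of all genes passed. Their summed level was 4.54e+06 normalized counts in double knockdown replicate 3 against 3.35e+06 and 3.44e+06 in replicates 1 and 2, and 3.63e+06 to 4.11e+06 with negative siRNA.

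In the double knockdown the transcripts of smooth muscle actin, transgelin and β-tropomyosin (Acta2, Tagln and Tpm2) fell, that of desmin (Des) rose, and the other 5 genes did not pass the test. The fall of Tpm2 did not pass without double knockdown replicate 3. Across all genes tested, 32.8% passed in this comparison, 15.6% lower and 17.1% higher, and the share of 4 in 9 is to be read against that background. The test was limma on log2(normalized count + 1) over all 12 libraries, with Benjamini-Hochberg adjustment over all 11871 genes tested and a threshold of 0.05. The median log2 fold change (log2FC) of the 9 genes was -0.60, where the median over all genes tested was 0.00353. With double knockdown replicate 3 left out these medians were -0.21 and 0.00867. In bulk RNA, fewer cells of a type and less RNA per cell cannot be told apart.

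Acta2, smooth muscle α-actin, is the actin that marks myofibroblast stress fibres. With negative siRNA it was 249844, 251358 and 338686 normalized counts in replicates 1, 2 and 3, and in the double knockdown 132728, 165487 and 82853. Every double knockdown library was below every negative library, with replicate 3 lowest. The log2FC was -1.18 (SE 0.23, limma adjusted p 0.00243), and it was -0.90 (limma adjusted p 0.00351) without double knockdown replicate 3.

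Tagln encodes transgelin, an actin-bundling protein of smooth muscle also called SM22α. It was 147561, 138457 and 187582 normalized counts in the negative libraries and 79653, 91276 and 47034 in the double knockdown. The groups again did not overlap, and replicate 3 was again the lowest. Its log2FC was -1.16 (SE 0.22, limma adjusted p 0.00208), or -0.88 (limma adjusted p 0.00208) without double knockdown replicate 3. Of the comparison's 12 fits that each left out 1 library, all 12 kept the calls of Acta2 and Tagln.

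Tpm2, β-tropomyosin, lies along the actin filament and controls access of myosin. It was 35821, 34224 and 50116 normalized counts in the negative libraries and 31344, 28003 and 15315 in the double knockdown. The groups did not overlap, which over all genes held for 21.5% lower and 23.1% higher, but only replicate 3 was far below the lowest negative library. The log2FC was -0.73 (SE 0.24, limma adjusted p 0.0332), and without double knockdown replicate 3 it was -0.41 and not called (limma adjusted p 0.0794). It was also not called without negative replicate 3, the highest library (-0.56, limma adjusted p 0.136). Myl9, the regulatory light chain of smooth muscle myosin, was 35304, 31874 and 42749 with negative siRNA and 30364, 29740 and 16707 normalized counts in the double knockdown. It also did not overlap between the groups, at a log2FC of -0.56 (SE 0.20) that missed the threshold (limma adjusted p 0.0534). Without double knockdown replicate 3 it was -0.28 (limma adjusted p 0.139).

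Des was the member that rose. It encodes desmin, the intermediate filament protein of cardiac, skeletal and smooth muscle. It was 3396, 3797 and 1866 normalized counts in the negative libraries and 6012, 8409 and 8233 in the double knockdown. The lowest double knockdown library was above the highest negative library, and double knockdown replicate 3 was here as high as replicate 2. The log2FC was 1.37 (SE 0.29, limma adjusted p 0.00387), and 1.30 (limma adjusted p 0.0102) without double knockdown replicate 3.

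Cardiomyocytes express desmin too, so their markers were read beside it. Of 15 cardiomyocyte markers tested, Myh6, Myl2 and Tnni3 were higher and Myl4 was lower in the double knockdown, 4 in 15 against 32.8% of all genes. Myl2 (log2FC 1.09, then 1.07, limma adjusted p 0.0728) and Tnni3 (1.12, then 1.06, limma adjusted p 0.0551) no longer passed without double knockdown replicate 3. The summed level of the 15 was 80562, 82317 and 46458 normalized counts in the negative libraries and 90488, 103533 and 79166 in the double knockdown. These sums overlapped between the groups, 12 of the 15 markers had a positive log2FC with a median of 0.61 over the 15 (0.61 also without double knockdown replicate 3), and none of the 15 markers was at 0 in any library. Per 100 counts of these markers, Des was 4.21, 4.61 and 4.02 in the negative libraries, 5.07, 5.26 and 4.88 after Yap siRNA, 5.34, 5.15 and 5.90 after Wwtr1 siRNA, and 6.64, 8.12 and 10.4 after both. Des was thus higher relative to the marker sum in every knockdown library than in any negative library. The ratio was chosen after values were seen, and 3 libraries against 3 cannot give an exact two-sided permutation p below 0.10.

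The remaining 4 genes overlapped between the groups, and in each of them double knockdown replicate 3 was the lowest of its group. Cnn1, calponin 1, an actin-binding inhibitor of myosin, was 3801, 4818 and 5253 normalized counts in the negative libraries and 3098, 5056 and 1424 in the double knockdown. Lmod1, leiomodin 1, which starts actin filaments in smooth muscle, was 4289, 4637 and 6008 and then 3813, 4734 and 1886. For both genes replicate 2 lay within the range of the negative libraries and replicate 3 far below it. The log2FCs were -0.70 for Cnn1 (95% confidence interval -1.51 to 0.10, limma adjusted p 0.165) and -0.60 for Lmod1 (-1.21 to -0.000303, limma adjusted p 0.117). Without double knockdown replicate 3 both were -0.21 (limma adjusted p 0.571 for Cnn1 and 0.388 for Lmod1).

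Actg2, the γ-actin of visceral smooth muscle, and Myh11, the smooth muscle myosin heavy chain, were within or above the range of the negative libraries in double knockdown replicates 1 and 2. Actg2 was 3084, 3505 and 4558 normalized counts in the negative libraries and 3663, 4455 and 2072 in the double knockdown. Its log2FC was -0.18 (95% confidence interval -0.68 to 0.32, limma adjusted p 0.585), and 0.14 without double knockdown replicate 3. Myh11 was 3460, 4917 and 4742 with negative siRNA and 6759, 7435 and 3987 normalized counts in the double knockdown. It was above all negative libraries in replicates 1 and 2 and within their range in replicate 3. The log2FC of Myh11 was 0.44 (95% confidence interval -0.073 to 0.95, limma adjusted p 0.174), and without double knockdown replicate 3 it passed the test at 0.71 (SE 0.19, limma adjusted p 0.0148).

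**Figure D1:**
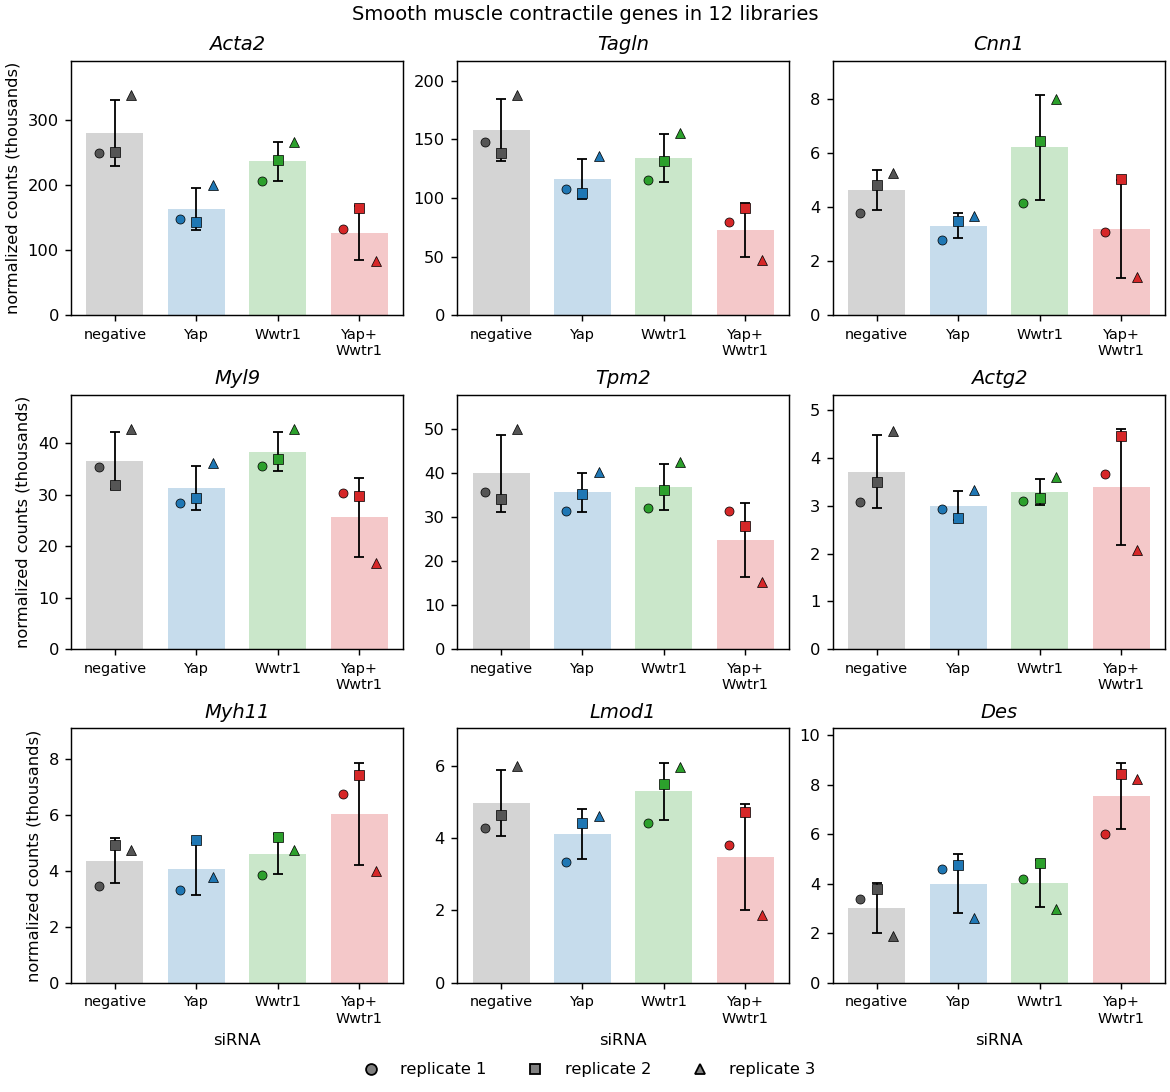
Normalized counts (linear axes from 0) of the 9 contractile genes in the 12 libraries; bars are means of 3 libraries, error bars SD, and point shapes replicate numbers. Acta2 and Tagln lie below all negative libraries in the double knockdown and with Yap siRNA, Des lies above them in the double knockdown, and double knockdown replicate 3 (triangle) is the lowest of its group in every gene but Des.

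In 8 of the 9 genes, double knockdown replicate 3 was below replicates 1 and 2. It had between 34.9% (Cnn1) and 56.2% (Myh11) of their mean, where Des had 114%. Without it, 4 genes passed against negative siRNA, namely Acta2 and Tagln (lower) and Des and Myh11 (higher), and 34.2% of all genes passed in that fit. Without double knockdown replicate 2, by contrast, 7 of the 9 genes passed, and 26.5% of all genes. In the fit without double knockdown replicate 3, 8 of the 9 macrophage markers passed, all lower than with negative siRNA, at a median log2FC of -1.59 over the 9, where over all 12 libraries 1 of the 9 was called (median -0.81). The macrophage marker gene Cx3cr1 was at 0 in at least 1 double knockdown library. The macrophage markers, the Yap1 level and the contractile levels all set replicate 3 apart, and the part of the macrophage signal in these levels was not tested.

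With Yap siRNA alone, no member passed limma over all 12 libraries, where 4.8% of all genes did. At an unadjusted p under 0.05 there was 1, Acta2, against 19.7% of all genes. edgeR gave 0 calls, where it called 536 of 11871 genes, and DESeq2 gave 1 where it called 8.53% of all genes. Acta2 also passed (limma adjusted p 0.0204) when double knockdown replicate 3, which enters the shared estimate of spread, was left out, where 6.44% of all genes did. Acta2, Tagln and Cnn1 nevertheless did not overlap with negative siRNA, all lower, which held for 12.6% of genes. Acta2 was 147923, 142887 and 200792 normalized counts with Yap siRNA, a log2FC of -0.78 (SE 0.23, limma adjusted p 0.0847). Tagln was 107750, 104578 and 136167 normalized counts (log2FC -0.44, limma adjusted p 0.300), and Cnn1 was 2781, 3497 and 3669 (log2FC -0.48, limma adjusted p 0.525).

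Replicate 3 was the highest library for Acta2 with negative siRNA and again with Yap siRNA. Libraries of the same number also deviated together across genes in the negative, Yap and Wwtr1 groups, with 9 correlations from 0.104 to 0.276. Relative to the negative library of the same number, Acta2 was 0.592, 0.568 and 0.593 with Yap siRNA. The same ratios were 0.730, 0.755 and 0.726 for Tagln and 0.732, 0.726 and 0.699 for Cnn1. For each of these genes the 3 ratios lay close together and well below 1. For Des they were 1.36, 1.25 and 1.41.

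In a fit of these 9 libraries with the replicate number as a block, 7 of the 9 members passed with Yap siRNA, 6 lower and 1 higher, where 16% of all genes passed, 7.12% lower and 8.92% higher. The genes that fell were Acta2 (limma adjusted p 0.000118), Tagln (0.00146), Cnn1 (0.00585), Lmod1 (0.0203), Myl9 (0.0216) and Actg2 (0.0248). Lmod1, Myl9 and Actg2 moved least, at log2FCs of -0.27, -0.23 and -0.30. Des rose by 0.42 on the log2 scale (limma adjusted p 0.00481). In the same fit 5 of the 15 cardiomyocyte markers passed, 4 higher and 1 lower, and 2 of the 9 macrophage markers, both lower. The part of these cells in the level of Des was not tested. Tpm2 (log2FC -0.15) and Myh11 (-0.11) did not pass. Without the block, the same 9 libraries gave 1 call, Acta2 (limma adjusted p 0.0276), where 5.69% of all genes passed.

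**Figure D2:**
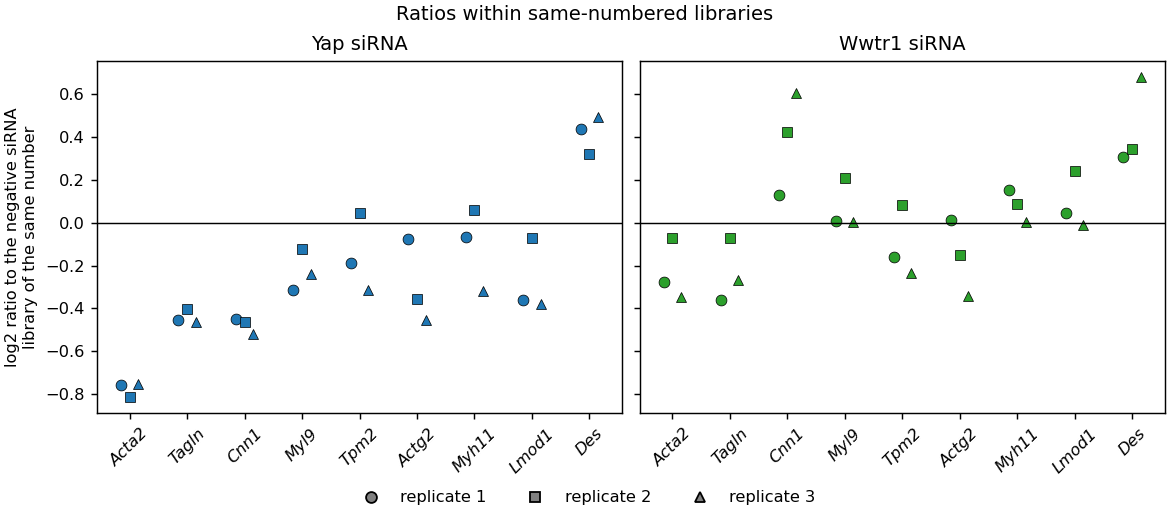
Log2 ratio of each Yap siRNA (left) and Wwtr1 siRNA (right) library to the negative siRNA library of the same replicate number, for the 9 contractile genes; each point is 1 library and the line at 0 is no difference. With Yap siRNA the 3 points of Acta2, Tagln and Cnn1 lie together below 0 and those of Des above it; with Wwtr1 siRNA Cnn1 and Des lie above 0.

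With Wwtr1 siRNA alone, no member passed limma over all 12 libraries and all 9 overlapped with negative siRNA, where 8.96% of all genes passed and 32.7% did not overlap. None was under 0.05 before adjustment, where 23.9% of all genes were. edgeR and DESeq2 gave 0 as well, where they called 1039 and 1545 of 11871 genes. Acta2 was 206242, 239187 and 266100 normalized counts (log2FC -0.23, 95% confidence interval -0.74 to 0.27, limma adjusted p 0.595). Cnn1 was 4161, 6457 and 8004 (log2FC 0.39, 95% confidence interval -0.42 to 1.19, limma adjusted p 0.574). Acta2 was lower and Cnn1 higher than the same-numbered negative library in all 3 replicates, at 0.825, 0.952 and 0.786 for Acta2 and 1.09, 1.34 and 1.52 for Cnn1. With the replicate block and without the double knockdown libraries, 4 members passed, where 21.3% of all genes did. Acta2 (limma adjusted p 0.0472) and Tagln (log2FC -0.23, limma adjusted p 0.0287) fell, and Cnn1 (limma adjusted p 0.0126) and Des (log2FC 0.45, limma adjusted p 0.00246) rose. Beside them 10 of the 15 cardiomyocyte markers passed in that fit, 7 higher and 3 lower, and 6 of the 9 macrophage markers, all lower. In the fit over all 12 libraries, leaving out negative replicate 3 brought the log2FC of Des to 0.13 with Wwtr1 siRNA and 0.10 with Yap siRNA. Leaving out Wwtr1 siRNA replicate 3 brought that of Cnn1 with Wwtr1 siRNA to 0.18.

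The single knockdowns were then compared directly. No member passed limma over all 12 libraries between Yap and Wwtr1 siRNA, where 8.79% of all genes did. edgeR and DESeq2 gave 0 as well, where they called 1024 and 1542 of 11871 genes. At an unadjusted p under 0.05 there were 2, Acta2 and Cnn1, or 2 in 9 against 24.4% of all genes. With double knockdown replicate 3 left out of the shared spread, Cnn1 passed (limma adjusted p 0.0366), where 11.9% of all genes did. Acta2 and Cnn1 did not overlap, both lower with Yap siRNA, which held for 16% of genes. The largest difference was that of Cnn1, at a log2FC of -0.86 (SE 0.37, limma adjusted p 0.173). With the replicate block and without the double knockdown libraries, 5 members passed, where 22.6% of all genes did, and each was lower with Yap siRNA than with Wwtr1 siRNA. They were Acta2 (log2FC -0.54, limma adjusted p 0.000745), Cnn1 (0.000181), Lmod1 (-0.37, limma adjusted p 0.00382), Myl9 (-0.30, limma adjusted p 0.00442) and Tagln (-0.21, limma adjusted p 0.0452). Des did not differ detectably between the single knockdowns, at a log2 difference of -0.026 (95% confidence interval -0.66 to 0.61).

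The comparisons with negative siRNA share their 3 negative libraries, so they are set side by side only. For Acta2 the log2FCs were -0.78, -0.23 and -1.18 with Yap siRNA, Wwtr1 siRNA and both, and for Tagln -0.44, -0.23 and -1.16. For Des they were 0.42, 0.45 and 1.37.

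**Figure D3:**
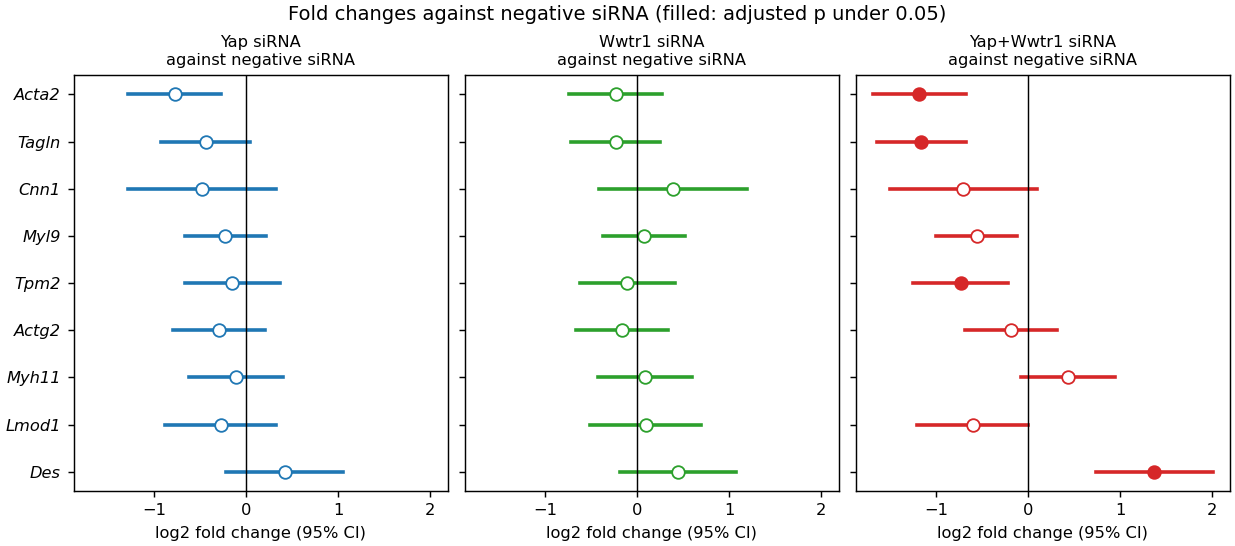
Log2 fold changes (log2FC) of the 9 contractile genes against negative siRNA in the fit over all 12 libraries, with 95% confidence intervals, for Yap siRNA, Wwtr1 siRNA and both; filled points passed the test. Acta2, Tagln, Tpm2 and Des passed in the double knockdown, and no gene passed with either siRNA alone.

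The double knockdown was also tested against each single knockdown. Against Wwtr1 siRNA, Acta2 (log2FC -0.95, limma adjusted p 0.0145), Tagln (-0.93, limma adjusted p 0.0131) and Myl9 (-0.63, limma adjusted p 0.0471) were lower and Des (0.93, limma adjusted p 0.0434) was higher, where 19.9% of all genes passed. Left without double knockdown replicate 3, Myh11 passed (log2FC 0.63, limma adjusted p 0.0425), where 18.9% of all genes did, and Acta2 and Tagln still passed. Des no longer passed, at a log2FC of 0.86 (SE 0.33, limma adjusted p 0.0902), and neither did Myl9, at -0.35 (SE 0.14, limma adjusted p 0.0941). Without Wwtr1 siRNA replicate 3 none of the 9 passed, where 1288 of 11871 genes did, against 2359 over all 12 libraries. Acta2 was then at -0.86 (limma adjusted p 0.0608) and Tagln at -0.81 (limma adjusted p 0.0593). Leaving out negative replicate 1 or Wwtr1 siRNA replicate 2 left 2 calls, where 2184 and 1463 of 11871 genes passed. Against Yap siRNA, Des passed narrowly (log2FC 0.95, SE 0.29, limma adjusted p 0.0496), where 13.8% of all genes did, and Tagln narrowly did not (-0.72, limma adjusted p 0.0507, and -0.44 without double knockdown replicate 3). Leaving out 1 library at a time ended the call of Des for 9 of the 12 libraries. Acta2 in the double knockdown overlapped with Yap siRNA, at a log2FC of -0.41 (95% confidence interval -0.91 to 0.10, limma adjusted p 0.273), and at -0.13 without double knockdown replicate 3. When double knockdown replicate 3 was left out, only Myh11 passed against Yap siRNA (0.82, limma adjusted p 0.0162), where 15.8% of all genes did, and Des was at 0.88 (SE 0.33, limma adjusted p 0.0895).

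Whether the effect of both siRNAs differed from the sum of the single effects was tested by the interaction, the double knockdown effect minus both single effects on the log2 scale. No member passed with limma, where 1.03% of all genes did. None was under 0.05 before adjustment either, where 14% of all genes were. edgeR and DESeq2 on the recovered reads also gave 0, where they called 102 and 500 of 11871 genes. The interaction was -0.18 for Acta2 (95% confidence interval -0.89 to 0.54), -0.49 for Tagln (-1.17 to 0.20) and 0.51 for Des (-0.39 to 1.40). With double knockdown replicate 3 left out, it was 0.10 for Acta2, -0.20 for Tagln and 0.44 for Des. These intervals are wide, so neither a sum nor a departure from it was shown.

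Because double knockdown replicate 3 was low in nearly all members at once, proportions between members within a library were examined. They were chosen after values were seen. Acta2 per count of Actg2 was 81.0, 71.7 and 74.3 with negative siRNA, 66.3, 75.7 and 74.0 after Wwtr1 siRNA, 50.6, 52.2 and 60.3 after Yap siRNA, and 36.2, 37.1 and 40.0 in the double knockdown. The double knockdown libraries were thus alike in this ratio, replicate 3 included, and lay below every other library, with the Yap siRNA libraries between them and the rest. Acta2 and Actg2 encode near-identical proteins, so reads shared between the actin genes could have been divided between them.

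Myh11 per 100 counts of Acta2 was 1.38, 1.96 and 1.40 with negative siRNA and 5.09, 4.49 and 4.81 in the double knockdown, with the Yap siRNA libraries at 2.23, 3.58 and 1.89 and the Wwtr1 siRNA libraries at 1.87, 2.19 and 1.79. Again the 3 double knockdown libraries were alike and did not overlap with any other. The mean ratio in the double knockdown was 3.04 times that with negative siRNA. Des per 100 counts of Acta2 was 1.36, 1.51 and 0.551 with negative siRNA and 4.53, 5.08 and 9.94 in the double knockdown.

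Tagln kept its proportion to Acta2 in the double knockdown. It was 59.1, 55.1 and 55.4 per 100 counts of Acta2 with negative siRNA and 60.0, 55.2 and 56.8 in the double knockdown. With Wwtr1 siRNA it was 55.7, 55.0 and 58.5, and with Yap siRNA it was higher in every library, at 72.8, 73.2 and 67.8. Myl9, Tpm2 and Lmod1 were higher relative to Acta2 in every double knockdown library than in any negative library, with mean ratios of 1.55, 1.38 and 1.5 times the negative mean. The same held with Yap siRNA alone, at 1.46, 1.55 and 1.43 times, and with Wwtr1 siRNA alone, at 1.24, 1.09 and 1.25 times. Cnn1 per 100 counts of Acta2 overlapped, at 1.52, 1.92 and 1.55 with negative siRNA and 2.33, 3.06 and 1.72 in the double knockdown. For each of these ratios, 3 libraries against 3 cannot give an exact two-sided permutation p below 0.10.

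**Figure D4:**
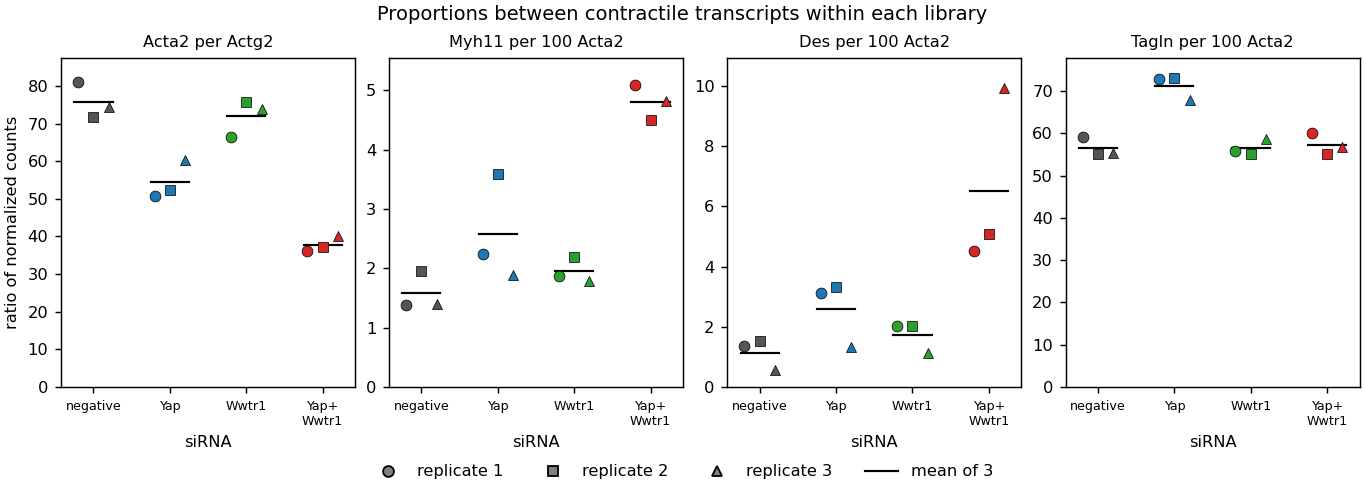
Ratios of normalized counts between contractile transcripts within each library (linear axes from 0; points are libraries, lines are means of 3). In the double knockdown Acta2 per Actg2 is 36.2 to 40.0, below all other libraries, and Myh11 per 100 Acta2 is 4.49 to 5.09, above them, while Tagln per 100 Acta2 overlaps between negative siRNA and the double knockdown and is higher with Yap siRNA.

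The genes whose pattern over the 12 libraries was closest to a member were found by the root mean square difference of their log2 values, each taken from its negative siRNA mean, among 10101 genes averaging 100 or more normalized counts. For Acta2 they were Fjx1 (0.164), Tagln (0.174) and Rin1 (0.180). For Cnn1 they were Lmod1 (0.246), Fstl3 (0.257) and Wnk2 (0.257). For Des they were Pygm, the muscle glycogen phosphorylase (0.140), Eef1a2, a translation elongation factor (0.176), and Rbm20, a splicing factor of muscle (0.192). A smaller value means a closer pattern. The member closest to Des was Myh11, at rank 2424 of the 10101 genes, and Acta2 was at rank 9905.

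Transcripts of proteins related to the members by sequence were examined next. Of 11 paralogs tested, 8 fell in the double knockdown, where 15.6% of all genes were lower, and 3 did not pass. Their median log2FC was -0.52. Among the falls were Tpm1, α-tropomyosin (log2FC -0.83, SE 0.12, limma adjusted p 0.000382), Cnn3, the non-muscle calponin (-0.68, SE 0.083, limma adjusted p 0.000123), and Vim, the intermediate filament protein of mesenchymal cells (-0.74, SE 0.11, limma adjusted p 0.00042). Nes, the intermediate filament protein nestin (-0.84), the tropomyosin Tpm4 (-0.59) and the cytoplasmic actin Actg1 (-0.52) fell too. Tpm1 was 60894, 54988 and 69666 normalized counts in the negative libraries and 37866, 38183 and 28537 in the double knockdown, without overlap. Without double knockdown replicate 3, 7 of the 11 passed, all lower, where 34.2% of all genes passed in either direction. The cytoplasmic actin Actb was the one lost (-0.46, then -0.34, limma adjusted p 0.0800), and the median was -0.49. Cnn3 was the paralog called with Yap siRNA (-0.40, limma adjusted p 0.0210).

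Of 31 companion genes tested, which build or anchor actomyosin, 18 fell and 5 rose in the double knockdown, where 15.6% of all genes were lower and 17.1% higher. Their median was -0.53. The largest falls were those of Vcl, vinculin, which ties actin to focal adhesions (log2FC -1.22, SE 0.17, limma adjusted p 0.000235), Actn4, the crosslinker α-actinin 4 (-0.93, SE 0.15, limma adjusted p 0.000658), and the collagen-binding integrin subunit Itga1 (-0.92, limma adjusted p 0.0372). Itga1 did not pass without double knockdown replicate 3 (-0.71, limma adjusted p 0.105). Vcl was 53464, 54276 and 55785 normalized counts in the negative libraries and 26902, 28511 and 16788 in the double knockdown. The rises were led by Synm, synemin, an intermediate filament protein that pairs with desmin (1.41, SE 0.37, limma adjusted p 0.0120), Synpo2, an actin-binding protein of the Z-disc (1.26, SE 0.23, limma adjusted p 0.00151), and the adherens junction protein Pgm5 (0.82, limma adjusted p 0.0051). Synm had small values, at 62.6, 75.0 and 68.2 normalized counts in the negative libraries and 109, 254 and 224 in the double knockdown. With that replicate 3 left out, 21 of the 31 passed, 16 lower and 5 higher, where 34.2% of all genes passed, and the median was -0.39. With the replicate block and without the double knockdown libraries, 17 passed with Yap siRNA, 15 of them lower, where 16% of all genes passed. With Wwtr1 siRNA 8 of the 31 passed in that fit, 5 of them lower, near the 21.3% of all genes.

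Of 18 regulators tested, 6 fell and 5 rose in the double knockdown, where 32.8% of all genes passed. Their median was -0.23. Srf itself was 6001, 5922 and 6327 normalized counts in the negative libraries and 3982, 4438 and 3846 in the double knockdown, without overlap (log2FC -0.58, SE 0.092, limma adjusted p 0.000691). With Yap siRNA its log2FC was -0.33, called with the replicate block (limma adjusted p 0.00502) and not over all 12 libraries (0.0682). Myocd, the gene of myocardin, had small values, at 113, 173 and 109 normalized counts with negative siRNA and 171, 145 and 131 in the double knockdown. It did not pass (log2FC 0.20, 95% confidence interval -0.38 to 0.79, limma adjusted p 0.602). Mrtfa and Mrtfb had no row in the table used here.

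Some of the regulators belong to the TGF-β pathway, which was not a list of its own. The ligand genes Tgfb3 (log2FC -1.45, SE 0.21, limma adjusted p 0.000355) and Tgfb2 (-1.38, SE 0.22, limma adjusted p 0.000648) fell, whereas the receptor gene Tgfbr2 (0.85, SE 0.19, limma adjusted p 0.00514) and the signal transducer gene Smad3 (0.66, SE 0.078, limma adjusted p 9.38e-05) rose. The ligand gene Tgfb1 (0.26, limma adjusted p 0.127) and the receptor gene Tgfbr1 (-0.27, limma adjusted p 0.201) did not pass, although Tgfbr1 did without double knockdown replicate 3 (-0.41, limma adjusted p 0.0492), and the inhibitor gene Smad7 fell (-0.45, limma adjusted p 0.00151). Of the other regulators, the forkhead factor gene Foxo4 rose (0.52, limma adjusted p 0.00369). Tgfb3 was 39961, 35120 and 56397 normalized counts in the negative libraries, 20400, 20350 and 28550 after Yap siRNA, 26925, 32767 and 39711 after Wwtr1 siRNA, and 17026, 18267 and 12382 after both. Both Tgfb2 (-0.92, limma adjusted p 0.0387) and Tgfb3 (-0.91, limma adjusted p 0.0342) were lower also with Yap siRNA alone over all 12 libraries. Smad3 was higher with either siRNA alone (Yap 0.34, limma adjusted p 0.0329, and Wwtr1 0.69, limma adjusted p 0.000655). Leaving out double knockdown replicate 3, 13 of the 18 regulators passed, 8 lower and 5 higher, where 34.2% of all genes passed. They included Tead2, Vgll4, Gata6, Elk3 and Klf4, which are not described singly here.

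**Figure D5:**
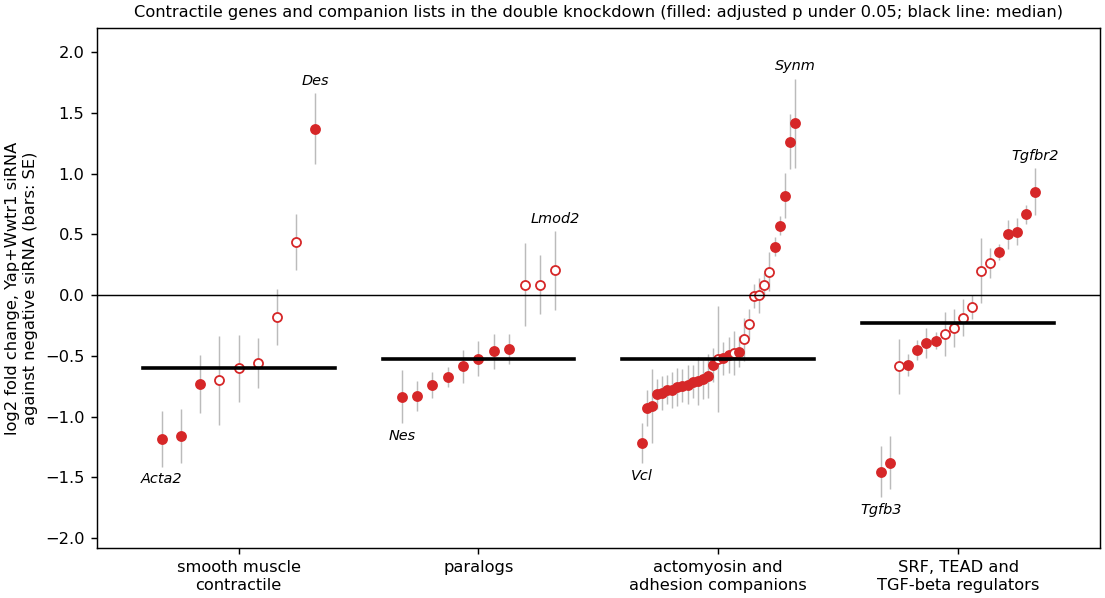
Log2FC of each gene in the double knockdown against negative siRNA, with SE bars, for the 9 contractile genes, 11 paralogs, 31 companions and 18 regulators; filled points passed the test, black lines are medians, and the lowest and highest gene of each list is named. The medians of the contractile genes, paralogs and companions lie between -0.60 and -0.52 (-0.21, -0.49 and -0.39 without double knockdown replicate 3), and each of the contractile, companion and regulator lists has genes that passed in both directions.

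Other cells that express some of the members were read by their markers. Pericytes and vascular smooth muscle cells carry Acta2, Tagln and Myh11. Of 10 pericyte markers tested, Abcc9, Kcnj8, Rgs5 and Rgs4 were higher and Mcam and Notch3 lower in the double knockdown, 6 in 10 against 32.8% of all genes, and the same 6 passed without double knockdown replicate 3. Their summed level was 113555 to 114975 normalized counts with negative siRNA, 90774 to 95495 with Yap siRNA, 141486 to 149560 with Wwtr1 siRNA and 95193 to 118077 in the double knockdown. Per 100 counts of these markers, Myh11 was 3.02 to 4.33 with negative siRNA and 4.19 to 6.92 in the double knockdown, and the groups overlapped. The list includes Notch3 and Pdgfrb, which fibroblasts also express, so its sum is not a measure of pericytes alone. Higd1b, a pericyte marker, was at 0 in at least 1 negative and 1 Wwtr1 siRNA library. Of 9 endothelial markers tested, 4 were higher and none lower in the double knockdown, namely Kdr, Cdh5, Erg and Tek, where 17.1% of all genes were higher, with a median log2FC of 0.89 over the 9. Cdh5 did not pass without double knockdown replicate 3 (limma adjusted p 0.0758). The endothelial sums were small, at 1138 to 1497 normalized counts with negative siRNA and 1705 to 2554 in the double knockdown, without overlap, and Emcn and Cldn5 were at 0 in at least 1 library of every group. Of 7 epicardial markers tested, Upk1b and Tbx18 were higher and Msln was lower, 3 in 7 against 32.8% of all genes, and the sums of 2889 to 3356 with negative siRNA and 3776 to 4167 in the double knockdown did not overlap. The part of pericytes, endothelial cells and epicardial cells in the levels of the contractile genes was not tested.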

How the data were processed

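RNA from 12 cultures, 3 for each of 4 siRNA groups, was sequenced on a DNBSEQ-G400. The authors trimmed reads with Trim Galore 0.6.5, aligned them to the rat build rn6 with HISAT2, assembled with StringTie2 and normalized with DESeq2. Whether counting used the strand is not given in the sources used here. Each deposited signal value is a whole count that the authors divided by the size factor of its library. The recovered totals exceed the reads per sample in the study's methods, so these counts need not equal sequenced reads. The values were checked to be whole multiples of 1 step per library, within 0.001 reads, and 100% of 147252 values were whole. Zeros can be failed estimates. Columns of the authors' own fold changes and p-values were not used.

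Groups and replicate numbers came from the sample titles. The members and gene lists were chosen with earlier results of these data known, so their results are descriptions and no list was tested as a set. Named genes were all members, Yap1, Wwtr1, Srf, Myocd, Mrtfa and Mrtfb, up to 6 called genes per companion list by size of change in the double knockdown, and the 3 genes most alike Acta2, Cnn1 and Des. Other genes named from the lists and ratios between members were chosen after values were seen.

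limma 3.58.1 (R 4.3.3) was fitted on log2(normalized count + 1) with a mean-variance trend over all 12 libraries without covariates, for genes averaging 10 or more normalized counts. Fold changes are on that scale. Same-numbered libraries were taken as pairs in the negative, Yap and Wwtr1 groups, since all 9 correlations of their deviations over tested genes exceeded 0.1. Over the 5000 genes of highest mean these 9 ran from 0.088 to 0.733. The lowest, negative against Wwtr1 siRNA replicate 1, was there under 0.1. Over tested genes, the correlations involving the double knockdown were -0.127 to 0.180, so no pairing was assumed there. The blocked fit of those 3 groups, and the fit of the same libraries without the block, were added after seeing the data. No pair of replicates agreed within sampling noise (lowest chi-square per gene 20.0). Alternatives included DESeq2 1.42.0 and edgeR 4.0.16 on recovered reads. Promoter sequences came from RefSeq (GRCr8).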

Additional observations from a re-analysis of the deposited data

How the results depend on the processing

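Against negative siRNA, the double knockdown calls of Acta2, Tagln and Des held under all 10 other settings and all 12 fits leaving out 1 library. The Tpm2 call was lost without the mean-variance trend, on the compared groups alone and without double knockdown replicate 3 or negative replicate 3. When 1 library was left out, 3 to 7 contractile genes were called in the double knockdown against negative siRNA. Against Wwtr1 siRNA it was 0 to 5, and against Yap siRNA 0 to 1. Of all 11871 genes, 2745 to 4054, 1288 to 2340 and 758 to 1873 were called, in that order. For Yap siRNA against negative siRNA and Yap against Wwtr1 siRNA the contractile genes called ran from 0 to 1. All genes called ran there from 111 to 764 and from 434 to 1409.

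Numbers in brackets are calls among all genes tested, 11871 unless given. With Yap siRNA the count of 0 became 1 on the compared groups alone (463) and with DESeq2 (1013). It was also 1 on the negative, Yap and Wwtr1 siRNA libraries only (675). It became 7 with the replicate block and without the double knockdown libraries (1904). That last fit gave 4 with Wwtr1 siRNA (2527) and 5 for Yap against Wwtr1 siRNA (2680). In the latter comparison the same libraries without the block gave 1 (1319). The replicate block over all 12 libraries left the contractile counts of these comparisons at 0 (874, 1322 and 1253). It gave 4, 1 and 3 for the double knockdown against negative, Yap and Wwtr1 siRNA (4204, 2123 and 2770). In the comparison of double knockdown with Yap siRNA, 1 contractile gene was called (1637). The count was 0 with a pseudocount of 0.1 (1600), no filter (1624 of 12271), no trend (1324), the compared groups alone (774) or edgeR (1588). It was 2 with a pseudocount of 10 (1714), a minimum mean of 100 (1635 of 10102) or DESeq2 (2193). Against Wwtr1 siRNA, 4 contractile genes were called (2359). The count was 2 without the trend (2063) and 5 with DESeq2 (2887), which added Tpm2. It was 3 on the compared groups alone (1661) or with edgeR (2347), both without Myl9. The causes were not tested.

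Among fold changes that were not called, Actg2 in the double knockdown against Wwtr1 siRNA turned from -0.02 to 0.0383 with edgeR and 0.0464 with DESeq2, and it ran from -0.25 to 0.30 when 1 library was left out. Other signs that turned when 1 library was left out were those of Tpm2 (-0.25 to 0.0205) and Myh11 (-0.29 to 0.0290) with Yap siRNA, of Myl9 (-0.0212 to 0.19), Tpm2 (-0.21 to 0.0673), Myh11 (-0.0777 to 0.21) and Lmod1 (-0.00597 to 0.24) with Wwtr1 siRNA, of Tpm2 (-0.15 to 0.0599) and Des (-0.22 to 0.25) for Yap against Wwtr1 siRNA, of Cnn1 (-0.65 to 0.27), Actg2 (-0.12 to 0.44) and Lmod1 (-0.60 to 0.0591) for the double knockdown against Yap siRNA, of Actg2 in the double knockdown (-0.41 to 0.14), and of the interaction of Acta2 (-0.39 to 0.10). Depth was not limiting for these genes, whose lowest value in any library was 1424 normalized counts; with 3 libraries a group, spread between libraries sets the precision.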
